A study of Mus musculus with 24 samples.

Results

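The genes described here are 40 immediate early, NF-kB feedback and heat shock genes, taken as a named list and looked up by symbol in the count tables. The list was chosen with earlier results of these data known. Counts of its genes set beside the share of all genes are therefore descriptions, not evidence of an excess. All 40 were among the 24421 symbols listed, had reads in every library and were among the 13166 genes tested. By role, 8 encode AP-1 and related bZIP factors, 10 encode Egr, Nr4a, Klf, Csrnp1 and Myc factors, 13 are signal feedback and other early response genes, 3 are NF-kB feedback genes and 6 are heat shock genes. RNA came from cDC1 and cDC2, the conventional dendritic cell subsets, sorted from the spleens of untreated C57Bl/6 mice aged 6 to 12 weeks. The deletion line was homozygous for floxed Zeb2 (Zeb2fl/fl), and the transgene line was homozygous for a Zeb2 transgene in the Rosa26 locus (R26-Zeb2Tg/Tg). Cre-positive mice (CD11cCRE) of each line were set against Cre-negative littermates, which carried the same floxed or transgenic alleles without Cre. The groups therefore also differed in Cre itself, and CD11c sequences drive Cre in other CD11c-expressing cells as well. Each subset and line had 2 Cre-negative and 4 Cre-positive libraries, 24 in all. Whether each library came from its own mice is not stated in the labels, and every p-value here measures the spread between these libraries only.

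Immediate early genes are transcribed within minutes of a stimulus, without new protein synthesis. ERK signalling acts on them through serum response factor at CArG boxes, cAMP signalling through CREB at cAMP response elements, and NF-kB through its own sites in the feedback genes Nfkbia, Nfkbiz and Tnfaip3. Heat shock genes are switched on by the factor HSF1, which binds repeats of the short word nGAAn when unfolded proteins build up. Both programmes are known to be induced when tissue is dissociated by enzymes, and here spleens were digested for 30 minutes at 37 °C before sorting. That step was common to all groups per the labels, and its part in the levels was not tested.

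Library totals over genes ran from 21972763 to 36094786 reads. Zeb2 itself read 103.6 to 176.4 CPM (read counts scaled to the library's total) in control cDC2 and 30.7 to 41.4 CPM in cDC2 with the deletion, and 147.7 to 159.0 CPM in cDC2 with the transgene. In cDC1 it read 0.488 to 3.26 CPM in controls, 0.457 to 2.67 CPM with the deletion and 41.4 to 46.2 CPM with the transgene. The summed level of 10 cDC1 marker genes was 6320 to 12410 CPM in cDC1 libraries and 234.0 to 473.3 CPM in cDC2 libraries, and a cDC2 list ran the other way (3529 to 4593 against 73.8 to 523.9 CPM), as the labels state. Lists for other cells also differed between the subsets, so their values belong beside every subset result below. The 8 monocyte markers summed to 212.3 to 546.1 CPM in cDC1 and 732.2 to 2826 CPM in cDC2, the 10 red pulp macrophage markers to 132.3 to 511.2 and 496.9 to 990.9 CPM, the 8 B cell markers to 26.6 to 170.3 and 174.5 to 364.5 CPM, and the 9 plasmacytoid dendritic cell markers to 72.3 to 149.0 and 217.1 to 419.8 CPM. T cell markers stayed at or under 36.4 CPM, neutrophil markers at or under 22.8 CPM and NK cell markers at or under 8.60 CPM in every library. Of the defining genes, the monocyte gene Vcan was at 0 in all 12 cDC1 libraries, and the globin genes Hba-a1, Hba-a2 and Hbb-bt were at 0 in all 24 libraries. The part of other cells in the subset differences was not tested, and in sorted bulk RNA a change in cell make-up cannot be told apart from a change in RNA per cell.

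Several of the genes were among the most abundant transcripts of these cells. Per kilobase of exon, Fos, which encodes the inducible partner of Jun in AP-1, ranked 17th in control cDC1 (1383 CPM per kb) and 9th in control cDC2 (1999 CPM per kb) of 12676 genes with a length. Btg2, which encodes an antiproliferative factor of mRNA decay, ranked 23rd and 11th, and Junb, an AP-1 subunit, 35th and 17th. The nuclear receptor gene Nr4a1 ranked 56th and 20th. Zfp36, which encodes the mRNA-destabilising protein tristetraprolin, ranked 78th and 21st. At the other end, the small Maf factor gene Maff averaged 13.1 CPM in control cDC1 and 30.1 CPM in control cDC2.

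**Figure D1:**
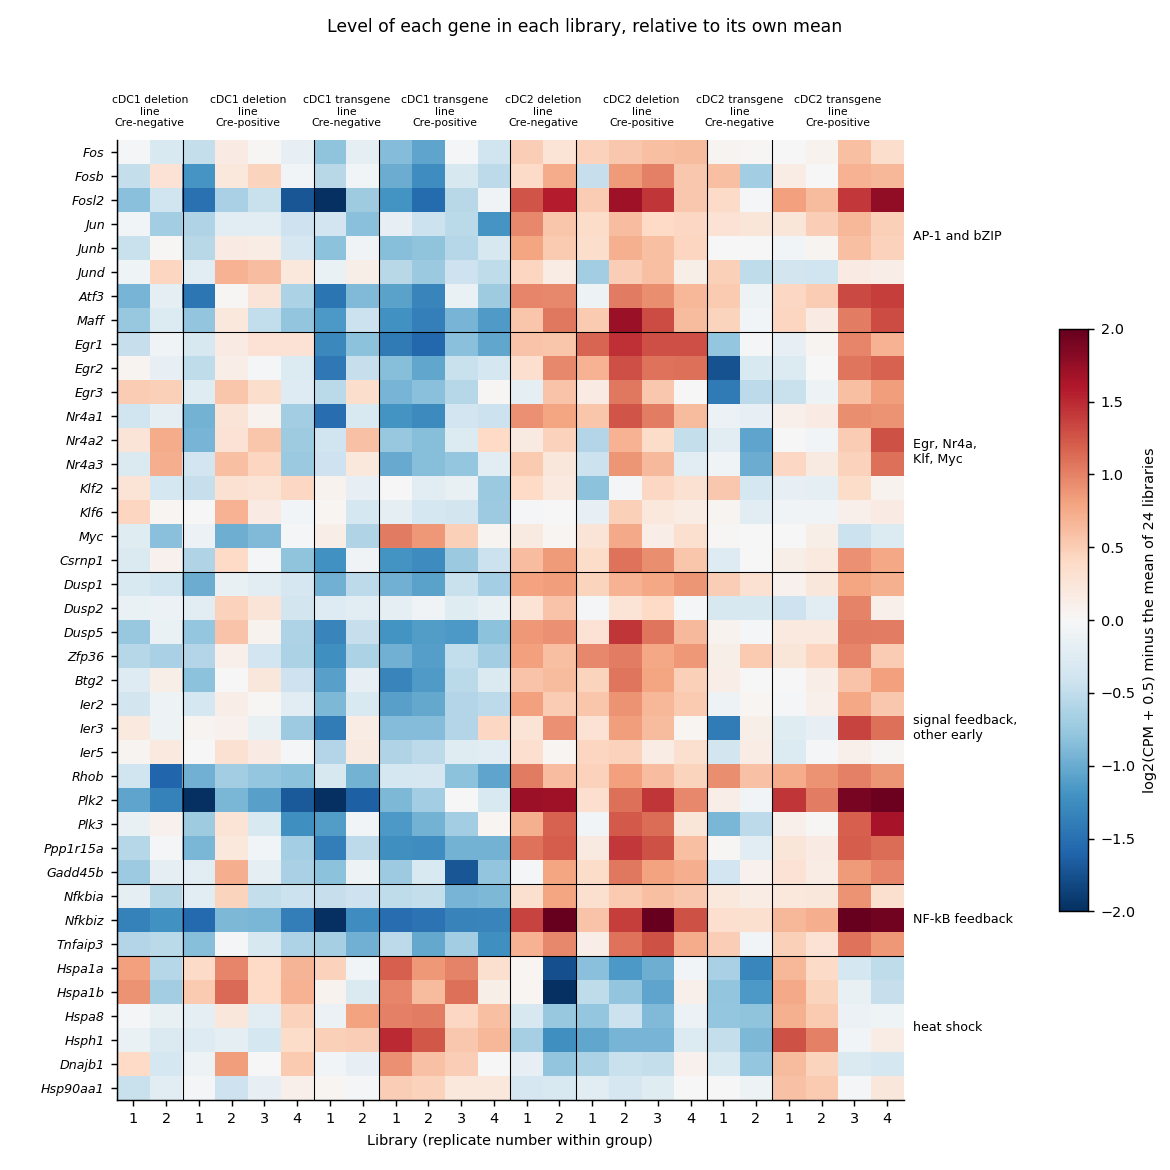
Level of each of the 40 genes (rows, grouped by role) in each of the 24 libraries (columns, grouped by subset, line and Cre, numbered by replicate), as log2(CPM + 0.5) minus the gene's mean over 24 libraries, with colours stopping at 2 in either direction. Most early response rows are red in the 12 cDC2 libraries and blue in the 12 cDC1 libraries, most heat shock rows at the bottom run the other way, and columns of the same group differ visibly from each other.

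Short windows before the starts of these genes were searched for exact words of known response elements. Elements farther away or with other letters were not searched, so a window without a match does not mean that the gene lacks the element. A 250-base window before a RefSeq start (GRCm38.p6, the assembly of mm10) was found for 33 of the 40 genes, and no entry was used for Egr1, Egr3, Myc, Ier2, Nfkbiz, Hspa8 and Hsp90aa1. For Hsph1, Fosb, Egr2, Nr4a1 and Nr4a3 the start used lies inside the span of the gene, so the window lies partly or wholly within it. The palindromic cAMP response element TGACGTCA was present in 4 of 33 (12.1%), against 2.73% of 10057 tested genes with a window. Those 4 are Plk2, Dusp1, Btg2 and Ppp1r15a, all higher in cDC2 than in cDC1 controls, as were 19 of the 34 early response genes. A link between the element and the subset was not tested. They are shown first, 5′ to 3′ and ending at the base before the start, with the element in capitals. Plk2 (polo-like kinase 2) has it 62 bases before the start in chr13:110394794-110395043, plus strand. Dusp1, encoding a phosphatase that switches off MAP kinases, has it 143 bases before the start in chr17:26508473-26508722, minus strand. For Btg2 the window is chr1:134079156-134079405, minus strand, and for Ppp1r15a, a regulatory subunit that restores translation after stress, chr7:45526269-45526518, minus strand.
Plk2: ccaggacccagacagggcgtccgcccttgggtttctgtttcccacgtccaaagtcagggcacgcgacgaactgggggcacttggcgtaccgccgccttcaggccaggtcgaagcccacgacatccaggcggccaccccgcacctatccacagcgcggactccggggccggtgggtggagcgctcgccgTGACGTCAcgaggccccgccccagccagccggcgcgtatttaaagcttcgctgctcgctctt
Dusp1: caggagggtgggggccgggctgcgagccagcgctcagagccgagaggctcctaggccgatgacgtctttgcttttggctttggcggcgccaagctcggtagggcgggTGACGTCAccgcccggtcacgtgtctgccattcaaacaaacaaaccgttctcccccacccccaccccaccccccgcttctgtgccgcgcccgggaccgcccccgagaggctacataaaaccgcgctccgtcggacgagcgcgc
Btg2: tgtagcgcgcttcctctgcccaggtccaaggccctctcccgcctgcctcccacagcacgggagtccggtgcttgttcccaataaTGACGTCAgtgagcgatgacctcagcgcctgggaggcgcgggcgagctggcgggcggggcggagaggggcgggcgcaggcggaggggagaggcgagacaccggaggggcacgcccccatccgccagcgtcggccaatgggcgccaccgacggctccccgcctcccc
Ppp1r15a: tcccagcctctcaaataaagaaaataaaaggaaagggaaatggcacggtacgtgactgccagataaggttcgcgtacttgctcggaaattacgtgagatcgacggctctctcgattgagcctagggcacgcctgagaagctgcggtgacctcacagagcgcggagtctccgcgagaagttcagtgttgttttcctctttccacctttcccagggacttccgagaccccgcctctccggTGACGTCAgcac

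CArG boxes, the sites of serum response factor, were found in 2 of the 33 windows (6.06%, against 1.09% of all genes), those of Zfp36 and Dusp5. NF-kB sites were found in 9 of 33 (27.3%, against 8.81% of all genes), including Nfkbia, whose product holds NF-kB in the cytoplasm, and Tnfaip3, whose product A20 ends NF-kB signalling. The pair of CArG boxes of Dusp5 (a nuclear ERK phosphatase) lies end to end 82 and 72 bases before the start in chr19:53528895-53529144, plus strand, and is printed as 1 run of capitals. The box of Zfp36 lies 58 bases before the start in chr7:28379229-28379478, minus strand. Tnfaip3, in chr10:19015411-19015660, minus strand, has an AP-1 element (TGANTCA, the first capitals) 136 bases before the start, the only such match among the 33 (3.03%, against 4.30% of all genes). NF-kB sites follow 125 and 12 bases before its start, also in capitals.
Dusp5: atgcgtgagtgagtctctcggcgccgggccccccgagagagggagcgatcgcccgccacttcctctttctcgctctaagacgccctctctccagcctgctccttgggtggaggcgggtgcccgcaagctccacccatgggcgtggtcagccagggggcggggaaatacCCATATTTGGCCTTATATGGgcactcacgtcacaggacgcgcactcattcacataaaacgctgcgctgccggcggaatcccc
Zfp36: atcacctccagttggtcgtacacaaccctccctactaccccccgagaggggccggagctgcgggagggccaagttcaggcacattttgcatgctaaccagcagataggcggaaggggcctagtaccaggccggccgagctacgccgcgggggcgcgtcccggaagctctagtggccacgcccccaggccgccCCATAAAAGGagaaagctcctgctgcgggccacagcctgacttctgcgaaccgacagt
Tnfaip3: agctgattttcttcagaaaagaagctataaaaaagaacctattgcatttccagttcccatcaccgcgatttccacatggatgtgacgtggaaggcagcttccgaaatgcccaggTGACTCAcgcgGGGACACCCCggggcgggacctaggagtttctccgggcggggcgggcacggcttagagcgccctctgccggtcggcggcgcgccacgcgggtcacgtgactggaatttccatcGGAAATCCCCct

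Heat shock elements were searched as 2 inverted repeats. GAANNTTC was found in 4 of 33 windows (12.1%, against 5.09% of all genes), those of Hspa1a, Hspa1b, Jun and Fosl2. TTCNNGAA was found in 1 of 33 (3.03%, against 5.78%), that of Hsph1. The windows of the inducible Hsp70 genes Hspa1a (chr17:34972157-34972406, minus strand) and Hspa1b (chr17:34959239-34959488, minus strand) are identical at 247 of 250 positions, with an NF-kB match 133 and the heat shock element 104 bases before the start, both in capitals. Hsph1, encoding the Hsp110 exchange factor of Hsp70, has TTCTCGAA 33 bases before the start used here, in chr5:149636337-149636586, minus strand. The span of the gene reaches 149636498, so that start and this element lie inside the gene and not upstream of it. The E-box CAGGTG, a core word of ZEB binding sites, was found on either strand in 4 of 33 windows (12.1%, against 15.1% of all genes), those of Fosb, Plk3, Tnfaip3 and Dnajb1, and is not in capitals. In Tnfaip3 it overlaps the AP-1 element by 2 bases. All motifs were searched on both strands, and a match is a description of these letters, not evidence of binding.
Hspa1a: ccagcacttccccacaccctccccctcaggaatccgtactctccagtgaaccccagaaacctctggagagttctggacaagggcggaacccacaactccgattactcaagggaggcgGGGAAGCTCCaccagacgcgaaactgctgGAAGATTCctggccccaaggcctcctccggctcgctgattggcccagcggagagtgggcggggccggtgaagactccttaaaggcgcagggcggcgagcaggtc
Hspa1b: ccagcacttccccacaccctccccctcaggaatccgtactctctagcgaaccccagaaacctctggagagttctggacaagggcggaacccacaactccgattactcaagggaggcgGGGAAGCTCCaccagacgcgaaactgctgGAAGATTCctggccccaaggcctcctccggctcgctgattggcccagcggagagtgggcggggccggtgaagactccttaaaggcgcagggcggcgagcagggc
Hsph1: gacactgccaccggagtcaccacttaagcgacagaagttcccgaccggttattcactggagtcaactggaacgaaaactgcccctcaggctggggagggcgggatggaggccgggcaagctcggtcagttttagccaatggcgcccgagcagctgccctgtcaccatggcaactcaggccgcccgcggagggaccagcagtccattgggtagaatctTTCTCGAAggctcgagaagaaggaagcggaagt

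Replicate libraries of 1 group differed more in most of these genes than in the median gene tested. The within-group SD of log2 CPM had a median of 0.41 over the 40 genes, against 0.23 over all genes tested and 0.14 over the 4885 genes whose average log2 CPM was 5 or more. It was widest for Ier3 (0.65), a target of NF-kB and ERK signals, and Nfkbiz (0.64), and narrowest for Hsp90aa1 (0.19), which encodes the inducible Hsp90. All 40 genes were above the median of the abundant genes, although Maff itself averaged under 5 (4.34). Among all genes tested, Hsp90aa1 (percentile 38.8) and Ier5 (percentile 49.0) were below the median, and Ier3 reached percentile 79.4.

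The spread had a direction by library, and it moved differently for the early response and the heat shock genes. In the deletion line, Cre-positive replicate 2 had the highest level of 28 of the 40 genes in cDC1 and of 24 in cDC2, and replicate 1 had the highest level of none in either subset. The mean log2 CPM of the 34 early response genes was 7.85, 8.62, 8.44 and 7.99 in the 4 Cre-positive deletion libraries of cDC1, and 8.75, 9.46, 9.34 and 9.01 in those of cDC2. Replicates 2 and 3 were thus the highest in both subsets.

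In the transgene line the heat shock genes followed the other pair of libraries. Their mean log2 CPM was 8.94, 8.72, 8.002 and 7.996 in the 4 Cre-positive cDC2 libraries, while that of the early response genes was 8.66, 8.69, 9.39 and 9.34. Replicates 1 and 2 were high in heat shock genes and low in early response genes, and replicates 3 and 4 were the reverse. In cDC1 the means were 9.18, 8.97, 8.79 and 8.49 for heat shock genes and 7.70, 7.65, 7.96 and 7.99 for early response genes. Hsph1 read 129.5, 109.1, 66.3 and 72.5 CPM in these cDC1 libraries and 110.7, 92.6, 44.2 and 50.8 CPM in the cDC2 libraries, so that replicates 1 and 2 stood above 3 and 4 in both subsets.

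The highest Cre-positive library had the same number in cDC1 and cDC2 for 21 of 40 genes in the deletion line (52.5%, against 32.7% of all genes) and for 18 of 40 in the transgene line (45%, against 29.6%). These are descriptions, and the libraries were not split or tested by them. Over all genes, transgene Cre-positive replicates 1 and 2 were also the closest pair of their group, with a chi-square per gene of 14.2 in cDC1 and 10.1 in cDC2, where other pairs of replicates ranged up to 51.1. This statistic covers counting error only, and amplified reads are not independent molecules. No libraries were merged.

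**Figure D2:**
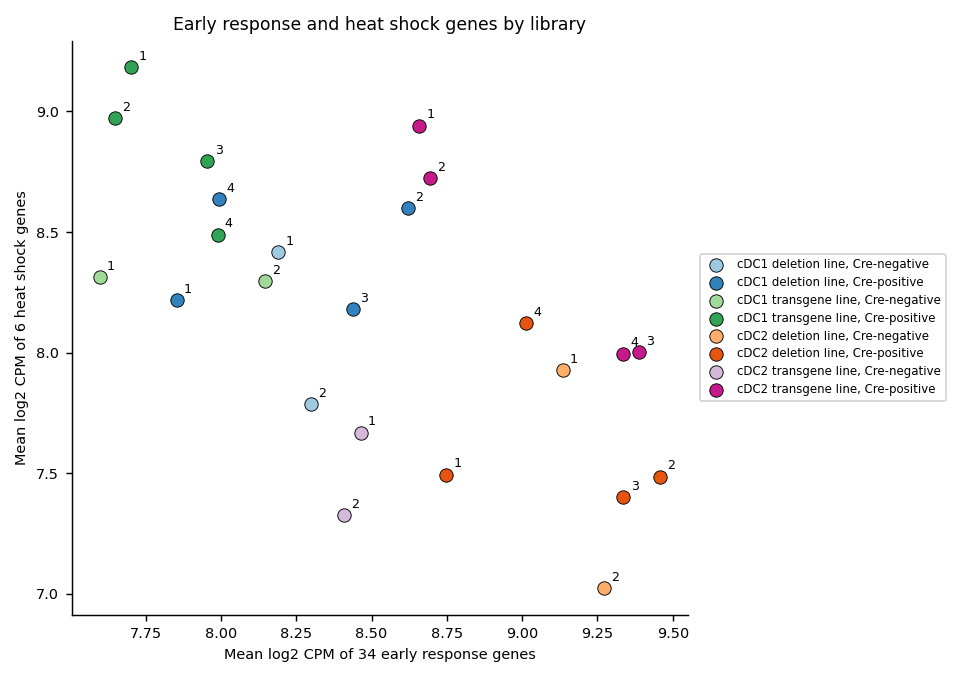
Mean log2 CPM of the 6 heat shock genes (vertical axis) against that of the 34 early response genes (horizontal axis), 1 point per library, coloured by group and numbered by replicate. The cDC1 libraries lie mostly to the left and the cDC2 libraries mostly to the right (cDC1 reaches 8.62 and cDC2 begins at 8.41), and in cDC2 with the transgene replicates 1 and 2 (8.66 and 8.69 for early response genes) lie above and to the left of replicates 3 and 4 (9.39 and 9.34).

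Differences between the subsets were the most frequent of all comparisons made. In controls of both lines (4 libraries against 4), 19 of the 40 genes were higher in cDC2 and 4 were lower, by edgeR's quasi-likelihood test at an adjusted p of 0.05. Over all genes tested, 53.4% passed, 27.6% higher and 25.8% lower, so that the share of members passing (57.5%) was near the background and their direction was not. All 19 higher genes were among the 34 early response genes and all 4 lower ones among the 6 heat shock genes. The median log2 fold change was 0.63 for the early response genes and -0.86 for the heat shock genes, beside 0.05 for all genes. Without overlap between the 4 control libraries of each subset, 14 of 40 genes were higher and 2 lower, against 23.4% and 22.6% of all genes. These counts are descriptions, as the genes were chosen with earlier results of these data known.

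Plk2 and Nfkbiz had the widest gaps. Plk2, a kinase of the stress and growth response, read 163.1 and 161.4 CPM in deletion-line control cDC2, 54.4 and 47.6 CPM in transgene-line control cDC2, and 11.5 to 23.5 CPM in the 4 control cDC1 libraries. The subsets did not overlap, and the 2 lines differed within cDC2. By edgeR it was higher in cDC2 by 2.42 on the log2 scale (SE 0.26, adjusted p = 4.57e-08). Nfkbiz, which encodes the atypical nuclear IkB protein IkB-zeta, read 158.6, 452.0, 78.6 and 77.7 CPM in control cDC2 and 13.7 to 26.5 CPM in control cDC1, again without overlap (log2 fold change 2.79, SE 0.42, edgeR adjusted p = 5.90e-06).

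Of the AP-1 and bZIP genes, 6 of 8 were higher in control cDC2. Fosl2 had the widest difference (1.78, SE 0.38), followed by the stress factor Atf3 (1.43, SE 0.33) and Maff (1.18, SE 0.29). Jun, the central AP-1 subunit, averaged 1331 ± 324.1 CPM (SD, n = 4) in control cDC2 and 665.2 ± 164.0 CPM (SD, n = 4) in control cDC1, a log2 fold change of 0.98 (SE 0.17, edgeR adjusted p = 3.14e-05). Fos averaged 4702 ± 721.3 CPM and 3254 ± 689.5 CPM (SD, n = 4 each), a log2 fold change of 0.53 (SE 0.18). Its call (edgeR adjusted p = 0.0177) was lost without cDC1 deletion-line control 2, cDC1 transgene-line control 1 or cDC2 deletion-line control 1, with an adjusted p of 0.0618 to 0.107. Fosb and Jund did not pass, and Jund was nearly level (0.09, SE 0.24).

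Fewer of the Egr, Nr4a, Klf and Myc genes passed, 2 of 10. They were Egr1 (0.75, SE 0.21, edgeR adjusted p = 0.00527), the growth-signal zinc finger factor, and Nr4a1 (0.90, SE 0.28), an orphan receptor induced by antigen receptor signals. The call of Egr1 was lost without cDC2 transgene-line control 2 (adjusted p 0.0579). Other members of the same families lay on the other side of 0 without passing, with Egr3 at -0.56 (SE 0.30), Nr4a2 at -0.47 (SE 0.37) and Nr4a3 at -0.16 (SE 0.32).

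Of the signal feedback and other early response genes, 8 of 13 were higher. Rhob averaged 200.9 ± 31.5 CPM in control cDC2 and 68.8 ± 25.2 CPM in control cDC1 (SD, n = 4 each), a log2 fold change of 1.55 (SE 0.20, edgeR adjusted p = 5.68e-07). Zfp36 read 2857 to 4662 CPM in the 4 control cDC2 libraries and 1125 to 1780 CPM in the 4 of cDC1 (1.27, SE 0.17, edgeR adjusted p = 1.46e-06). Dusp1 read 2552 to 3669 CPM against 1062 to 1660 CPM (1.15, SE 0.17, edgeR adjusted p = 6.46e-06). None of these 3 genes overlapped between the subsets. Among the others that passed were Dusp5, Ppp1r15a, Ier2 and Btg2, and among those that did not were Dusp2 (0.24, SE 0.21) and Ier5 (0.07, SE 0.14).

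All 3 NF-kB feedback genes were higher in control cDC2. Beside Nfkbiz, Tnfaip3 averaged 371.9 ± 104.7 CPM against 156.1 ± 19.5 CPM (SD, n = 4 each; log2 fold change 1.23, SE 0.22), and Nfkbia 651.1 ± 140.5 CPM against 377.4 ± 41.1 CPM (SD, n = 4 each; 0.77, SE 0.18). The control libraries of the subsets did not overlap for either gene.

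The heat shock genes ran the other way, with 4 of 6 lower in control cDC2. Hspa8, the constitutive Hsp70 gene, read 1360 to 1893 CPM in cDC2 and 2134 to 4158 CPM in cDC1 controls, without overlap (log2 fold change -0.82, SE 0.22, edgeR adjusted p = 0.00311). Hsph1 read 19.2 to 32.7 CPM against 37.2 to 64.8 CPM, also without overlap (-0.95, SE 0.27). Hspa1a read 407.6, 117.6, 253.8 and 161.5 CPM in cDC2 and 707.4, 268.5, 548.3 and 384.0 CPM in cDC1, and here the subsets overlapped. Hspa1a (-1.03, SE 0.35, edgeR adjusted p = 0.0156) and Hspa1b (-0.91, SE 0.37, adjusted p = 0.0415) are near-identical copies on chromosome 17 (34969359 to 34972156 and 34956429 to 34959238), and how reads were divided between them is uncertain. Hspa1a held 47.7 to 60.6% of their summed level in every library. The call of Hspa1a was lost without deletion-line control 1 or transgene-line control 1 of cDC1, or deletion-line control 2 or transgene-line control 2 of cDC2 (adjusted p 0.0582 to 0.162). That of Hspa1b was lost without those 4 or without transgene-line control 1 of cDC2 (0.0592 to 0.376). Hsp90aa1 was level, at 197.8 ± 23.0 CPM in cDC2 and 201.3 ± 29.9 CPM in cDC1 (SD, n = 4 each).

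The line from which controls came changed how many of these genes passed. With the 2 controls per subset of the deletion line alone, 17 genes were higher in cDC2 and none was lower, where 39.5% of all genes passed. With those of the transgene line alone, 9 were higher (Atf3, Dusp1, Fosl2, Jun, Nfkbiz, Plk2, Rhob, Tnfaip3 and Zfp36) and Hspa8 and Hsph1 were lower, where 41.5% of all genes passed. The range without 1 control library was 18 to 24 genes.

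The same direction was seen between the subsets in Cre-positive mice. With the deletion, 24 genes were higher in cDC2 and 5 lower, where 56.1% of all genes passed (29% higher and 27.1% lower). All 19 genes higher in controls were among the 24, and the other 5 were Csrnp1, Egr2, Gadd45b, Myc and Plk3. The 5 lower were all heat shock genes, the 4 of the controls and Dnajb1, which encodes the Hsp40 partner of Hsp70. With the transgene, the 24-library fit called 29 genes higher and only Myc lower, where 52.9% of all genes passed (26.8% higher and 26% lower). These 29 again held all 19 of the controls. The added 10 were Csrnp1, Egr2, Egr3, Fosb, Gadd45b, Ier3, Ier5, Klf6, Nr4a3 and Plk3. A block on same-numbered libraries, given below, also called Hspa1a, Hspa1b, Hspa8, Hsph1 and Dnajb1 lower with the transgene. Whether these counts differ between the 3 settings was not tested by comparing them, and the differences of effect are given below.

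Single genes show how large the gap stayed. With the transgene Nfkbiz read 99.1, 103.2, 481.7 and 237.0 CPM in cDC2 and 21.3, 21.9, 24.2 and 24.6 CPM in cDC1 (log2 fold change 3.32, SE 0.43, edgeR adjusted p = 7.12e-07). Libraries 3 and 4 of cDC2 were far above libraries 1 and 2, and all 4 were above cDC1. With the deletion Plk2 read 62.7, 107.0, 134.0 and 97.0 CPM in cDC2 and 11.9 to 26.1 CPM in cDC1 (2.40, SE 0.26, edgeR adjusted p = 4.58e-08). Egr1 read 2947 to 3592 CPM in cDC2 and 1052 to 1607 CPM in cDC1 with the deletion (1.17, SE 0.22, edgeR adjusted p = 7.19e-05), without overlap.

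Myc, a bHLH transcription factor of cell growth, was the 1 gene with opposite calls. With the deletion it was higher in cDC2 (0.84, SE 0.23, edgeR adjusted p = 0.00353), at 46.6 to 72.2 CPM against 21.3 to 41.3 CPM. With the transgene it was lower (-0.79, SE 0.23, edgeR adjusted p = 0.00536), at 31.6 to 46.1 CPM against 44.1 to 87.7 CPM in cDC1, where 1 library of each subset fell inside the range of the other.

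The heat shock genes did not pass between the subsets with the transgene in the 24-library fit, with log2 fold changes of -0.75 for Hspa1a (SE 0.34, edgeR adjusted p = 0.074) and -0.34 for Hsph1 (SE 0.26, edgeR adjusted p = 0.286). Here the replicate numbers were taken to pair the libraries of cDC1 and cDC2, and a block on same-numbered libraries called 37 genes, 31 higher and 6 lower, where it called 53.5% of all genes. It added Hspa1a (-0.79, edgeR adjusted p = 0.000915), Hspa1b, Hspa8, Hsph1 and Dnajb1 as lower, and Nr4a2 and Jund as higher. With the deletion, the calls of Dnajb1, Hspa8 and Hsph1 were lost without single libraries. For Dnajb1 these were cDC1 library 2 or cDC2 library 1, for Hspa8 cDC1 library 4 or cDC2 library 1 or 3, and for Hsph1 cDC1 library 4 or cDC2 library 1, 2 or 3 (adjusted p 0.0607 to 0.126).

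**Figure D3:**
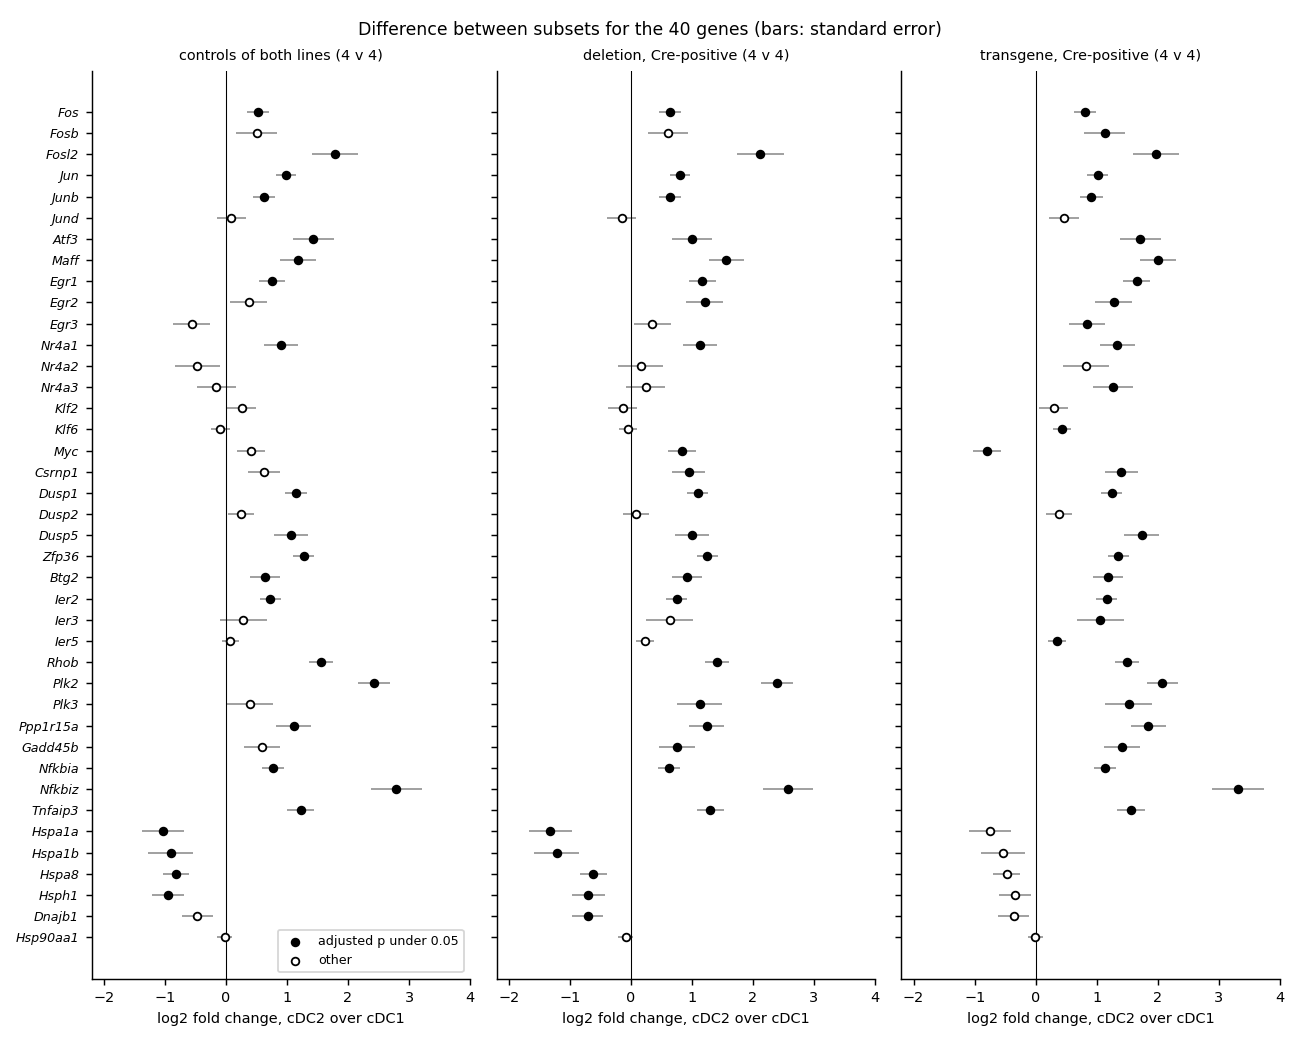
Log2 fold change of cDC2 over cDC1 (horizontal axis, bars are the standard error) for the 40 genes (rows) in controls of both lines, with the deletion and with the transgene, 4 libraries per subset in each panel, filled where the edgeR adjusted p was under 0.05. Early response genes lie mostly to the right of 0 in all 3 panels, heat shock genes to the left, and Plk2 (2.42, 2.40 and 2.07) and Nfkbiz (2.79, 2.58 and 3.32) lie farthest to the right.

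Deletion of Zeb2 changed none of the 40 genes by edgeR's test in either subset. In cDC1, where 0.0228% of all genes passed (0.0228% higher and 0% lower), none had an unadjusted p under 0.05 (4.81% of all genes did) and DESeq2 called none. None was higher or lower without overlap, against 6.1% and 5.58% of all genes. Egr1 had the smallest p in cDC1 (log2 fold change 0.39, SE 0.27, edgeR adjusted p = 0.996). In cDC2, where 5.21% of all genes passed (2.33% higher and 2.88% lower), 2 genes had an unadjusted p under 0.05 (17.8% of all genes did), and DESeq2 again called none.

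Those 2 genes in cDC2 were Egr1 and Plk2, in opposite directions, and they were also the only ones without overlap (13.5% of all genes were higher and 13.6% lower). Egr1 read 2947, 3592, 3199 and 3204 CPM with the deletion and 1944 and 1913 CPM in the littermate controls, all 4 above both (0.75, SE 0.27, edgeR adjusted p = 0.124). Plk2 read 62.7, 107.0, 134.0 and 97.0 CPM against 163.1 and 161.4 CPM, all 4 below both (-0.70, SE 0.29, edgeR adjusted p = 0.196). Against the controls of both lines together, an alternative chosen after the data were seen, Egr1 rose (1.20, SE 0.22, edgeR adjusted p = 0.000994) with Egr2 (1.14, SE 0.31, adjusted p = 0.0220), while Plk2 was at 0.14 (SE 0.24, adjusted p = 0.821), and 8.07% of all genes passed. Nfkbiz was next by p (-0.89, SE 0.46, edgeR adjusted p = 0.318). It moved to 0.05 without cDC2 deletion-line control 2, the library at 452.0 CPM. Marker sums moved between these groups too. The 8 monocyte markers were at 732.2 to 1097 CPM with the deletion and 2366 to 2826 CPM in controls, mostly through Lyz2 (441.6 to 712.3 against 1931 and 2394 CPM), while Ms4a4c lay the other way (239.3 to 309.5 against 162.5 and 218.0 CPM). B cell markers summed to 267.2 to 364.5 against 187.5 to 198.5 CPM, but the genes of the list disagreed. Ms4a1 was higher with the deletion (163.5 to 211.6 against 12.1 and 22.5 CPM). Cd22 (56.74 to 94.55 against 140.2 and 114 CPM) and Cd79b (20.7 to 34.7 against 40.8 and 40.4 CPM) were lower. Plasmacytoid dendritic cell markers summed to 294.0 to 321.5 against 217.1 to 278.8 CPM. There Cox6a2 was higher (12.8 to 23.3 against 0.336 and 0.577 CPM) and Siglech lower (1.28 to 2.56 against 5.86 and 3.27 CPM). The cDC1 markers were at 234.0 to 264.2 against 268.9 to 301.1 CPM. Their part in the values of Egr1, Plk2 and Nfkbiz was not tested.

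The transgene raised Plk2 in both subsets, the only one of the 40 genes called. In cDC1, where 7% of all genes passed (3.58% higher and 3.42% lower), it read 26.2, 30.2, 49.7 and 40.1 CPM with the transgene and 11.5 and 15.7 CPM in controls. All 4 were above both controls (log2 fold change 1.43, SE 0.34, edgeR adjusted p = 0.00862), and all 4 were also above the 23.5 and 19.0 CPM of the deletion-line controls. In cDC2, where 0.327% of all genes passed (0.114% higher and 0.213% lower), it read 134.5, 100.6, 185.8 and 194.3 CPM against 54.4 and 47.6 CPM (1.59, SE 0.32, edgeR adjusted p = 0.0237). Deletion-line control cDC2, at 163.1 and 161.4 CPM, lay within the range of cDC2 with the transgene. In cDC1 most marker sums differed between the groups without overlap. The cDC2 markers were at 234.6 to 523.9 CPM with the transgene and 80.2 to 98.2 CPM in controls, the red pulp macrophage markers at 271.9 to 511.2 against 177.0 to 211.9 CPM and the endothelial and stromal markers at 64.2 to 67.8 against 41.5 to 42.2 CPM. In that last list Pecam1 (51.61 to 60.17 against 38.7 and 38.6 CPM) and Kdr (5.195 to 11.36 against 2.291 and 1.378 CPM) were higher. Col1a1 was lower (0 to 0.3102 against 0.442 and 0.4431 CPM), Col3a1, Pdgfrb and Dcn were at 0 with the transgene, and Cdh5 and Sparc overlapped. Lower with the transgene were the cDC1 markers (6320 to 8997 against 10230 to 12410 CPM), the B cell markers (26.6 to 46.9 against 79.2 to 103.2 CPM) and the plasmacytoid dendritic cell markers (72.3 to 86.4 against 110.7 to 114.1 CPM). Of the B cell genes, Ms4a1 was lower (6.114 to 18.35 against 41.39 and 26.49 CPM), while Cd22 overlapped (13.13 to 21.83 against 16.23 and 7.286 CPM). In cDC2 the cDC2 markers were at 4042 to 4593 against 3529 to 3725 CPM. The part of these in the level of Plk2 was not tested. The call in cDC1 was lost without transgene-line control 1 (adjusted p 0.129). That in cDC2 was lost without transgene-line control 1 or 2 or Cre-positive library 3 or 4 (0.0593 to 0.344), and against the controls of both lines together (0.76, SE 0.24, adjusted p = 0.199), where 0.653% of all genes passed.

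In cDC2 most of the other genes lay on the same side without passing. All 6 heat shock genes and 31 of the 34 early response genes had a log2 fold change above 0, with medians of 1.08 and 0.57, beside 0.01 for all genes. An unadjusted p under 0.05 was reached by 17 of 40 genes, all higher, against 8.69% of all genes in either direction. Without overlap, 17 of 40 were higher, against 11% of all genes (none was lower, against 9.97%). The 40 genes were chosen with earlier results of these data known and share the same 2 controls. These shares are therefore not evidence of an excess. Hsph1 (1.39, SE 0.34, edgeR adjusted p = 0.0877) and Hspa8 (1.09, SE 0.28, adjusted p = 0.108) came closest. Hspa8 read 3902, 3410, 2192 and 2233 CPM with the transgene and 1394 and 1360 CPM in controls. All 4 libraries were above both controls, with libraries 1 and 2 the highest. Egr2 read 435.8, 524.7, 1102 and 1197 CPM against 157.5 and 425.8 CPM (1.48, SE 0.40, edgeR adjusted p = 0.132), and here libraries 3 and 4 were the highest. DESeq2 called 4 genes in this comparison (Plk2, Hsph1, Hspa8 and Egr2) and 0.904% of all genes.

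In cDC1 with the transgene, the early response genes had a median log2 fold change of -0.17 and the heat shock genes one of 0.60, beside 0.02 for all genes. All 6 heat shock genes were above 0 and none passed by edgeR. Without overlap, 5 of the 40 genes were higher and 2 lower, against 13.4% and 11.8% of all genes. Myc read 87.7, 78.0, 59.6 and 44.1 CPM against 46.6 and 28.0 CPM (0.85, SE 0.29, edgeR adjusted p = 0.0817), with the lowest transgene library inside the range of the controls. DESeq2 called Myc as well as Plk2 (9.21% of all genes). Against the controls of both lines together, Plk2, Myc, Hsph1 and Hsp90aa1 passed, where 14.9% of all genes did.

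The difference of the transgene effect between the subsets was tested directly, and none of the 40 genes passed by edgeR (2.01% of all genes did, 0.82% higher and 1.18% lower). An unadjusted p under 0.05 was reached by 11 genes, 10 with a higher effect in cDC2 and Myc with a lower one, against 13.04% of all genes, and DESeq2 called none. A block on same-numbered libraries, which also pairs the controls although their numbers did not meet the limit for pairing, called 8 genes, all with a higher effect in cDC2, where it called 3.04% of all genes. They were Egr3 (1.69, SE 0.20, edgeR adjusted p = 0.000214), Plk3, Egr1, Egr2, Hsph1, Nr4a2, Nr4a3 and Csrnp1. In the fit without the block Egr3, an Egr factor known as a feedback target of antigen receptor signalling, came closest (1.72, SE 0.52, edgeR adjusted p = 0.0971). It read 173.0, 219.4, 357.2 and 419.1 CPM in cDC2 with the transgene against 87.4 and 162.3 CPM, and 123.4, 131.9, 158.6 and 237.9 CPM in cDC1 against 161.2 and 298.7 CPM. The difference of the deletion effect passed for none by edgeR either (1.08% of all genes, 0.585% higher and 0.494% lower), with no unadjusted p under 0.05 (13.6% of all genes) and none called by DESeq2.

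Control cDC2 of the transgene line stood below those of the deletion line in nearly all early response genes. None of the 40 genes passed edgeR's test (0.137% of all genes did, 0.0835% higher and 0.0532% lower), while 15 had an unadjusted p under 0.05, all lower, against 9.14% of all genes in either direction, and DESeq2 called Plk2 (0.532% of all genes). All 34 early response genes had a log2 fold change below 0, with a median of -0.68 beside -0.01 for all genes, and 27 of them were lower without overlap, among 28 of the 40 genes, where 21.5% of all genes were lower and 19.2% higher without overlap. With 2 libraries against 2, such a gap rests on 4 values. Because the genes were chosen with earlier results of these data known, these shares are not evidence of an excess. Plk2 was at -1.67 (SE 0.35, edgeR adjusted p = 0.0584), Egr2 at -1.53 (SE 0.44) and Nfkbiz at -1.97 (SE 0.56). Plk3, a stress-induced relative of Plk2, read 45.5 and 59.9 CPM against 141.5 and 195.6 CPM (-1.68, SE 0.54, edgeR adjusted p = 0.352). The heat shock genes had a median of -0.17. Marker sums differed between these controls as well, in transgene-line against deletion-line order 1564 to 2111 against 2366 to 2826 CPM for monocyte, 496.9 to 609.6 against 660.8 to 680.5 CPM for red pulp macrophage and 3529 to 3725 against 3899 to 4399 CPM for cDC2 markers. Higher in the transgene line were plasmacytoid dendritic cell (285.9 to 312.4 against 217.1 to 278.8 CPM), B cell (199.7 to 204.7 against 187.5 to 198.5 CPM) and T cell markers (33.4 to 34.5 against 23.9 to 27.8 CPM), and NK cell and erythroid markers, both under 6 CPM. Their part was not tested.

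In control cDC1 the early response genes also lay lower in the transgene line, 31 of 34 below 0 with a median of -0.35. None of the 40 passed by edgeR (0.129% of all genes did, 0.0456% higher and 0.0835% lower), 1 had an unadjusted p under 0.05 (7.20% of all genes), and DESeq2 called none. Without overlap, 8 genes were lower and 2 higher, against 17.4% and 16.8% of all genes. The gene with the smallest p was Egr1, at 537.6 and 738.4 CPM against 949.3 and 1240 CPM (-0.78, SE 0.30, edgeR adjusted p = 0.575). The transgene comparisons and these comparisons between lines share the transgene-line controls, so the values are set side by side and not read as support for each other.

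The libraries with the transgene can also be set against the deletion-line controls. In cDC2 the mean of the 4 transgene libraries was above both deletion-line controls for 6 of 6 heat shock genes and 4 of 34 early response genes (32.1% of all genes), and below both for 18 of 34 (29.7% of all genes). All 4 libraries were above both for 3 of 6 heat shock and 0 of 34 early response genes (10.5% of all genes). In cDC1 the mean was above both for 5 of 6 heat shock genes and 2 of 34 early response genes (38% of all genes), and below both for 27 of 34 (32.8% of all genes). All 4 libraries were above both for 3 of 6 and 2 of 34 (16.9% of all genes). These counts compare different lines and carry no test.

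**Figure D4:**
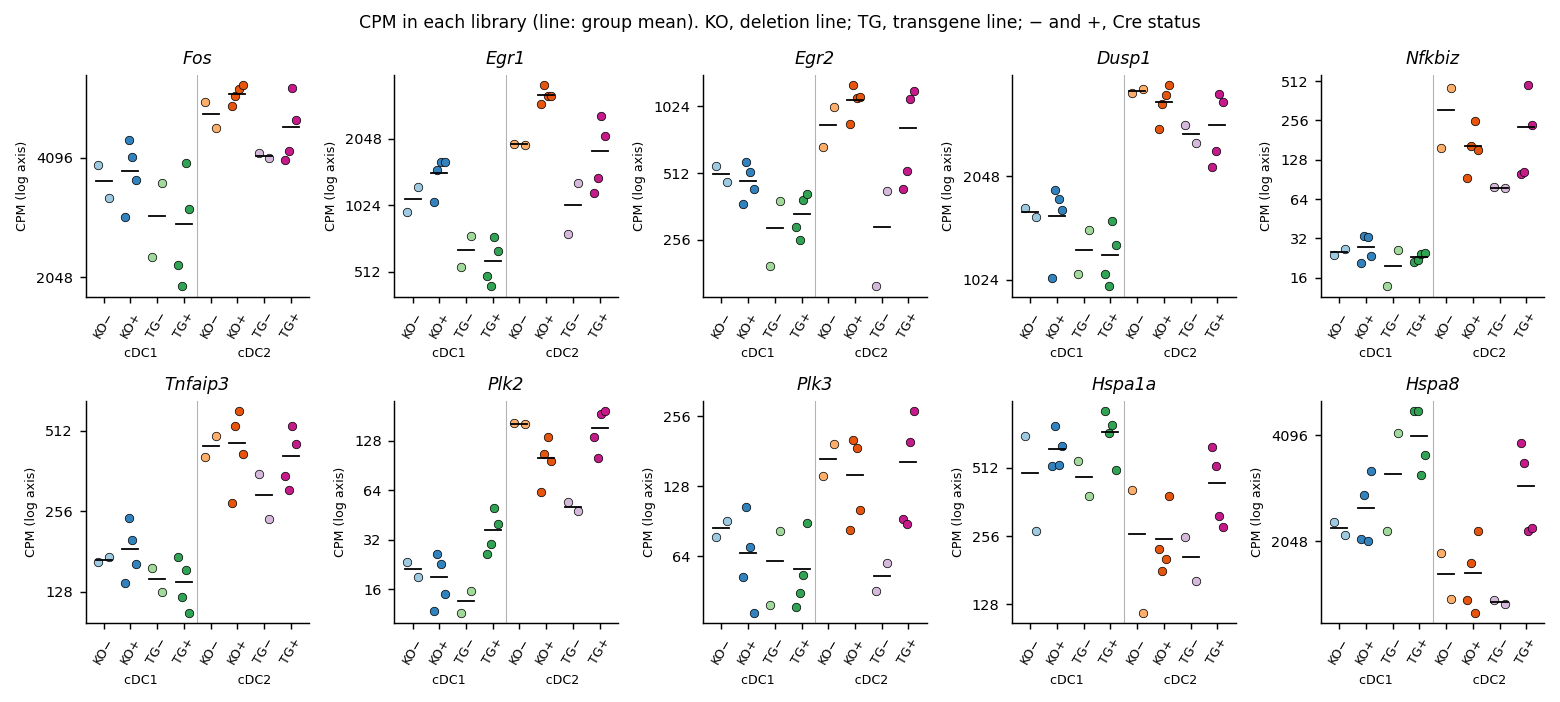
CPM (vertical log axes, each with its own range) of 10 genes in every library, by subset, line (KO, deletion; TG, transgene) and Cre status, with a line at the group mean. Plk2 is higher with the transgene than in its own controls in both subsets (26.2 to 49.7 against 11.5 and 15.7 CPM in cDC1), while the cDC2 controls of the 2 lines, 2 libraries each, do not overlap for Egr2, Plk3, Nfkbiz and Plk2, none of which passed between the lines.

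Other genes of the same pathways moved with the subset too. Of 22 other NF-kB pathway genes, 15 were higher and 3 lower in control cDC2, led by Nfkb1 (log2 fold change 2.66, SE 0.11) and Relb (2.18, SE 0.20), which encode NF-kB subunits. Of 28 other early response genes, 17 were higher and 2 lower, with Cebpd (2.34, SE 0.15) and Klf13 (1.88, SE 0.10) first by p. Of 24 other heat shock and chaperone genes, 1 was higher and 11 lower, among them the endoplasmic reticulum chaperones Hsp90b1 (-1.60, SE 0.11) and Hspa5 (-0.94, SE 0.07). The 22 ERK and SRF pathway genes divided into 9 higher and 4 lower, with the SRF cofactor gene Elk3 at 3.28 (SE 0.13). Of 12 other AP-1 family genes 1 was higher and 6 were lower, including Jdp2 (-1.44, SE 0.16) and Batf3 (-0.91, SE 0.12), a factor that cDC1 require. By background, 27.6% of all genes were higher and 25.8% lower. These lists were chosen with earlier results of these data known, so their counts are descriptions only.

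Few of these 108 pathway genes passed in the comparisons of Cre-positive with Cre-negative libraries, and their share was near that of all genes for the deletion in cDC2 (4.63% against 5.21%) and the transgene in cDC1 (6.48% against 7%). With the deletion in cDC2, Nfkb1 (-0.52, SE 0.12, edgeR adjusted p = 0.0127), the Hsp70 cofactor gene Hspbp1 (-0.47, SE 0.11) and the kinase gene Sgk1 (-0.83, SE 0.24) fell. Mcl1, a survival gene, rose (0.40, SE 0.10), as did the activation marker gene Cd69 (1.36, SE 0.39, edgeR adjusted p = 0.0436), which was named after its values were seen. With the transgene in cDC1, the chemokine gene Ccl3, a fast NF-kB target, rose (1.92, SE 0.33, edgeR adjusted p = 0.000601). The AP-1 family genes Batf (0.67, SE 0.18) and Jdp2 (0.65, SE 0.20), Rgs1 (1.08, SE 0.24), Klf13 (0.40, SE 0.12) and the mitochondrial chaperonin gene Hspd1 (0.51, SE 0.12) rose as well, and the kinase gene Mapk9 fell (-0.41, SE 0.11). With the transgene in cDC2, 3 of the 108 passed (2.78% against 0.327% of all genes). Because the lists were chosen with earlier results of these data known, that share is not evidence of an excess. Those 3 genes were Ccl3 (2.25, SE 0.32, edgeR adjusted p = 0.000595), the related Ccl4 (2.12) and Stip1, which bridges Hsp70 and Hsp90 (0.73, SE 0.13), all higher. Ccl3 was also lower in transgene-line than in deletion-line control cDC2 (-1.98, SE 0.35, edgeR adjusted p = 0.0117), and the transgene comparison shares those transgene-line controls.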

How the data were processed

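RNA of sorted splenic cDC1 and cDC2 was sequenced in 24 libraries. The labels' protocols give 4 ng of input RNA, the SMART-Seq v4 kit, 15 cycles of library PCR and 75 bp reads. The submitters' processing notes name FastQC 0.11.4, Trimmomatic 0.35, TopHat2 2.1.0, SAMtools 0.1.18 and mm10. Deposited values are the authors' raw counts per gene symbol, unscaled. Which program, annotation and strand setting produced them is not given in the sources used here, so overlapping genes could share reads. Reads in no feature (10.4 to 15.7% per library) and ambiguous reads (0.970 to 1.09%) were left out.

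edgeR 4.0.16 (R 4.3.3, limma 3.58.1) kept 13166 genes with filterByExpr at a minimum count of 10 and a minimum total of 15, and TMM scaled the libraries. All 24 libraries entered a single quasi-likelihood fit of 8 group means. P-values were adjusted by Benjamini-Hochberg over all genes, with a threshold of 0.05. SE is the log2 fold change divided by the root of F. CPM values are TMM-scaled, and log2 levels have a prior count of 0.5. The procedure was tested on simulated counts. Cre-positive were compared with Cre-negative libraries per subset and line, cDC2 with cDC1 in 3 settings, Cre effects between the subsets, and transgene-line with deletion-line controls. Named genes were Fos, Jun, Egr1, Dusp1, Nfkbia, Tnfaip3, Hspa1a and Hsp90aa1, up to 6 passing genes per direction with the smallest p (3 smallest p where fewer than 3 passed), and up to 2 passing genes per pathway list. Others were chosen after their values were seen. Members and lists were chosen with earlier results of these data known. Alternatives were other filters, DESeq2 1.42.0 or its size factors, the compared groups alone, replicate blocks, controls of 1 line, leaving out each library and, chosen after the data were seen, controls of both lines.

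Pairing was checked on deviations from group means. In cDC1 and cDC2 with the transgene, same-numbered libraries had r of 0.101 to 0.111 (log2 CPM, prior count 2), all over the limit of 0.1, so their numbers were taken to pair them. With a prior count of 0.5, r was 0.0801 to 0.0961, under that limit. In the Cre-positive deletion libraries r (prior count 2) was 0.125, 0.170, 0.0764 and 0.112 for replicates 1 to 4. Only replicate 3 was under the limit, and the set was not taken as paired because not all passed. Controls were lower (0.0352 and -0.00779) and were not taken as paired either.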

Additional observations from a re-analysis of the deposited data

Results flagged for a closer look

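The mean log2 CPM of the 6 heat shock genes in cDC2 of the deletion line, Cre-positive replicate 4, was 8.12, far from the nearest of its 3 fellow libraries at 7.49, a gap of 0.87 of the group's range. All 6 heat shock genes were above their group mean in that library, and the cDC1 library of the same number was also the highest of its group (8.64). In cDC1, replicate 2 was nearly as high (8.60), while in cDC2 replicate 2 was at 7.49. Nfkbia in cDC2 of the transgene line, Cre-positive replicate 3, had a log2 CPM of 9.85, with the nearest library at 9.28, a gap of 0.83 of the range. Nfkbiz was also highest in that library. The critical share for 4 samples passes about 1 group in 20 by chance, and 2 of 56 groups tested exceeded it.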

How the results depend on the processing

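Of the recomputed values and counts, 1669 kept their direction and their side of the threshold, 36 came to pass it, 39 no longer passed and 84 changed sign. The number of the 40 genes that passed was 0 in the 24-library fit for the deletion in cDC2. It was 2 with the replicate block (Nfkbiz -1.21 and Plk2 -0.97), 1 with the compared groups alone (Egr1) and 2 against the controls of both lines. For the transgene in cDC1 it was 1 as reported, 2 with DESeq2, 2 with the replicate block (Plk2 and Myc), 2 with the compared groups alone (Plk2, and Jund at -0.56) and 4 against the controls of both lines. For the transgene in cDC2 it was 1 as reported, 3 without a filter on low counts, 4 with DESeq2, 3 with the replicate block (Plk2, Hspa8 and Hsph1) and 3 against the controls of both lines (Hsp90aa1, Hspa8 and Hsph1). For the difference of the transgene effect it was 0 as reported, 1 with a block on the replicate number (Egr3) and 8 with a block on same-numbered subsets (Csrnp1, Egr1, Egr2, Egr3, Hsph1, Nr4a2, Nr4a3 and Plk3). For the line in control cDC2 it was 0 as reported, 1 (Plk2) without a filter, with a stricter filter, with DESeq2 and with the replicate block, and 9 with the compared groups alone, where 2 libraries stood against 2. For the subset in controls it was 23 as reported, 17 with the deletion line alone and 11 with the transgene line alone, which change the number of libraries and the line together. The cause of these changes was not tested.

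Cre-negative and Cre-positive libraries, and those of the lines, share only a number (r of deviations -0.100 to 0.0696). In the Cre-positive deletion libraries, all 8 correlated best with their own number in the other subset, a hint from the data. All 8 Cre-positive transgene libraries did so too. In the deletion line, a block on same-numbered subsets called 33 genes beside 29 without it. Beyond those given above, the block moved no count of calls by over 1.5 times. With the replicate block, the log2 fold changes that changed sign were these, for the deletion in cDC1 Fos -0.10 and Jun 0.0464, for the deletion in cDC2 Tnfaip3 -0.0696 and Hspa1a 0.19, for the transgene in cDC2 Dusp1 -0.14 and for the line in control cDC1 Hspa1a 0.0167. Against the controls of both lines, the log2 fold changes that changed sign were these, for the deletion in cDC1 Jun 0.11 and Dusp1 0.15, for the deletion in cDC2 Plk2 0.14, Nfkbiz 0.0909, Dusp1 0.10, Nfkbia 0.12, Hspa1a 0.0863 and Hsp90aa1 -0.0123, for the transgene in cDC1 Jun -0.0691 and for the transgene in cDC2 Jun -0.0395 and Dusp1 -0.12. Hsp90aa1 between the subsets changed sign with the controls of the deletion line alone (0.00816) and, with the transgene, with a stricter filter (0.011), DESeq2 size factors (0.00876), DESeq2 (0.00874) and the compared groups alone (0.000779).

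Leaving out 1 library at a time, the number of genes that passed was 18 to 24 for the subset in controls, 25 to 29 for the subset with the deletion, 26 to 34 for the subset with the transgene, 0 to 1 for the difference of the transgene effect, 0 to 2 for the transgene in cDC1 and 0 to 1 for the transgene in cDC2, and 0 throughout for the other comparisons. The lone remaining control is then assumed to vary like the other groups. Some log2 fold changes near 0 also changed sign. For the deletion in cDC1 these ranges were Jun -0.28 to 0.33, Dusp1 -0.12 to 0.12, Fos -0.0342 to 0.21, Hspa1a -0.18 to 1.20, Nfkbia -0.00838 to 0.42 and Tnfaip3 -0.0173 to 0.25. For the deletion in cDC2 these ranges were Tnfaip3 -0.13 to 0.21, Hspa1a -0.72 to 1.07, Nfkbiz -1.46 to 0.0477 and Nfkbia -0.29 to 0.18. For the transgene in cDC1 these ranges were Tnfaip3 -0.18 to 0.13, Fos -0.34 to 0.28, Jun -0.14 to 0.31, Egr1 -0.36 to 0.10 and Dusp1 -0.23 to 0.19. For the transgene in cDC2 these ranges were Dusp1 -0.0338 to 0.20. For the subset in controls these ranges were Hsp90aa1 -0.0889 to 0.0403. For the subset with the transgene these ranges were Hsp90aa1 -0.10 to 0.10. For the difference of the deletion effect these ranges were Fos -0.0463 to 0.20, Hsp90aa1 -0.23 to 0.0285, Hspa1a -1.28 to 0.72, Dusp1 -0.23 to 0.0123 and Tnfaip3 -0.26 to 0.0794. For the difference of the transgene effect these ranges were Jun -0.10 to 0.35, Hsp90aa1 -0.0483 to 0.15, Fos -0.046 to 0.57 and Dusp1 -0.12 to 0.31. For the line in control cDC1 these ranges were Jun -0.52 to 0.0886, Nfkbia -0.23 to 0.11 and Hspa1a -0.58 to 0.79. For the line in control cDC2 these ranges were Hspa1a -0.97 to 0.82.

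The lowest count of any of the 40 genes was 179 reads (Maff, cDC1 with the transgene, replicate 2), for which counting alone gives an error of about 7.47%, and other effects of depth were not tested. The 2 controls per line and subset limit the transgene and deletion comparisons, and the calls of Plk2 were lost without single controls.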
